A study of Mus musculus with 10 samples.

Results

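Replication licensing genes were examined in lamina propria macrophages of the mouse small intestine after experimental stroke. The set had 10 members of the 17279 genes listed: Mcm2, Mcm3, Mcm4, Mcm5, Mcm6 and Mcm7, which encode the subunits of the replicative helicase, and Mcm10, Cdt1, Cdc6 and Gins2, which encode proteins that load or activate it. They were matched by gene symbol, and all 10 passed the filter on low counts. Mcm6 was chosen by its lower level after stroke in these same libraries, so its difference between the groups is given as a description with no test. The other 9 members were added for their role, but with earlier results of these data known.

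Before each round of DNA synthesis, the origin recognition complex, Cdc6 and Cdt1 load the ring of Mcm2 to Mcm7 onto chromatin, a step called licensing. The loaded ring becomes an active helicase when Cdc45 and the GINS complex join it, with Mcm10 acting at the same step, and geminin then holds Cdt1 back so that no origin is licensed again. The genes of this machinery are transcribed in cells that prepare to divide, and most lamina propria macrophages of the adult gut descend from blood monocytes and divide little.

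RNA was sequenced from CX3CR1-GFP+ lamina propria macrophages, sorted by flow cytometry from the stripped mucosa of whole small intestines, 24 h after sham surgery (5 libraries) or permanent middle cerebral artery occlusion (pMCAO, 5 libraries), which blocks a main artery of the brain without reperfusion. The labels give the genotype of both groups as C57BL6/J, name no reporter allele beside the GFP sort, and give neither age nor sex. They call the libraries biological replicates, and the sequencing name of replicate 1 in each group marks it as a pool. GFP driven by Cx3cr1 marks monocytes and some dendritic cells as well as macrophages, which limits the sort as a source of 1 cell type.

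Total counts per library ran from 18894151 to 60665972 in the sham group and from 6430643 to 28672285 in the pMCAO group. Levels are CPM, counts scaled for library size after adjustment by trimmed mean of M values (TMM). Across the table, 0 of 16949 genes tested passed an FDR of 0.05 (edgeR's quasi-likelihood test, smallest FDR 0.922), while 799 had an unadjusted p under 0.05 and limma-voom called 0 genes and DESeq2 3. Macrophage markers were abundant in both groups, with Csf1r, the receptor for colony stimulating factor 1, at 1028 ± 326 CPM in sham and 1283 ± 338 CPM in pMCAO libraries (mean ± SD, n = 5 each). Genes of other cells were present too: the plasma cell gene Jchain ranged from 738 to 24253 CPM among sham and from 1048 to 26771 CPM among pMCAO libraries. Sham replicate 5 and pMCAO replicate 4 stood apart by their counts of Xist, the RNA of the inactive X chromosome. These were 1756 and 4461 CPM, against at most 4.92 CPM in the other 8 libraries. The sum of 4 Y-linked genes was 132 CPM in the former and 1.23 CPM in the latter, so these libraries were not alike.

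Beside Mcm6, the other 5 helicase subunit genes had lower fitted levels after pMCAO, with fitted log2 fold changes from -0.72 to -0.13 and a median of -0.49, against a median of -0.0059 over all 16949 genes tested. Mcm2 had the lowest value of these 5, Mcm7, Mcm4 and Mcm3 followed, and Mcm5 was near 0 with wide scatter. Of the 4 loading and activation genes, Mcm10 was at -0.54 and the other 3 lay between -0.12 and 0.16. None of the 9 members that could be tested was called, and 0% of all genes tested were called. Only Mcm4 and Mcm7, 2 of these 9, had an unadjusted p under 0.05, against 2.45% of all genes with such a p and a lower level and 2.26% with a higher level. Without Mcm6, which the choice itself put below 0, 8 of the 9 members were below 0, with a median of -0.33. Of all genes tested, 50.6% were below 0. The 9 members were chosen with earlier results of these libraries known, so their count is a description only. In bulk libraries, a smaller share of dividing cells and less RNA of these genes per cell cannot be told apart.

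**Figure D1:**
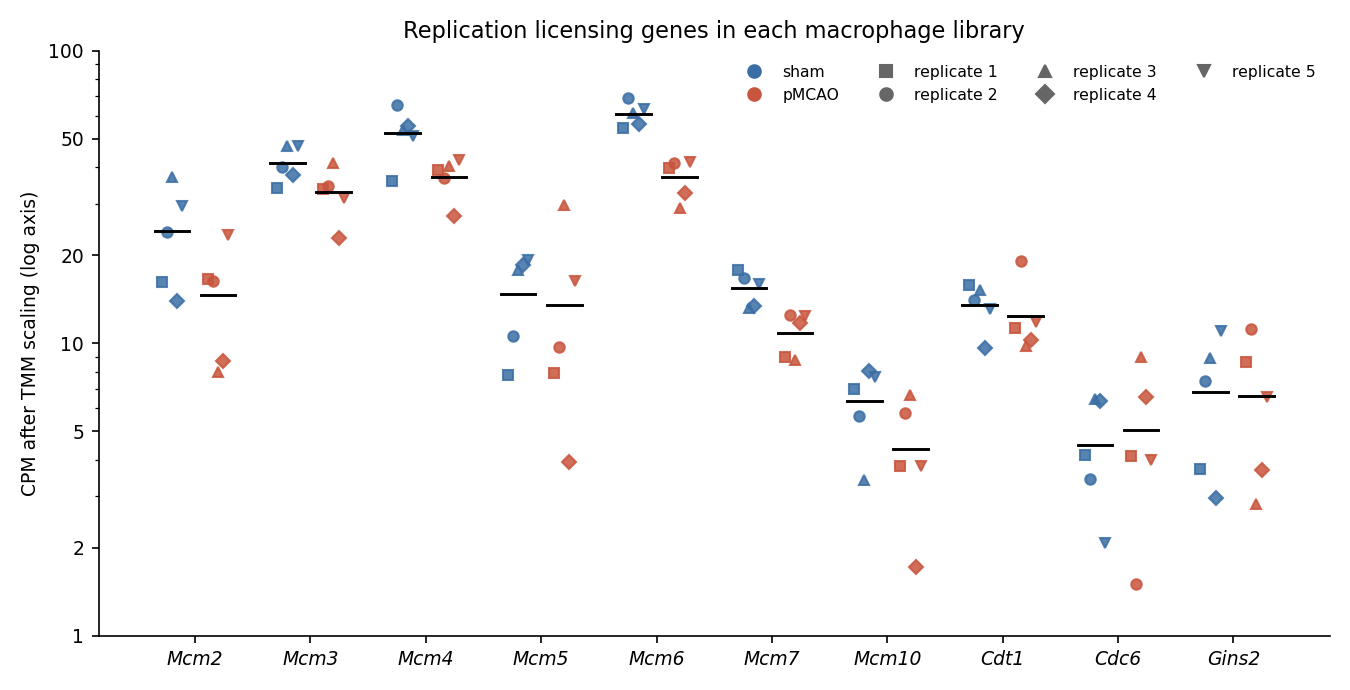
Level of each of the 10 members in CPM after TMM scaling (log axis) in the 5 sham (blue) and 5 pMCAO (red) libraries, with the replicate number as the symbol and the group mean as a bar. The Mcm6 points of the groups are apart (54.3 to 69.1 against 29.1 to 41.8), as are those of Mcm7, and those of the other 8 members overlap.

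Mcm6, a subunit of the helicase ring, was measured at 54.3, 69.1, 61.4, 56.2 and 63.3 CPM in sham replicates 1 to 5. In pMCAO replicates 1 to 5 it was at 39.6, 41.3, 29.1, 32.7 and 41.8 CPM. Each of the 5 pMCAO values was lower than each sham value, by at least the gap between 41.8 and 54.3 CPM, and the gene had been picked for this difference. The group means were 60.9 ± 5.89 CPM in sham and 36.9 ± 5.67 CPM in pMCAO libraries (SD, n = 5 each), so that the pMCAO mean was 60.6% of the sham mean. The fitted log2 fold change was -0.72 ± 0.16 (SE), and over 19 other settings and subsets of libraries it stayed between -0.79 and -0.65. Mcm6 was the member with the smallest relative spread among sham libraries, with a coefficient of variation of 9.68%, against 13.3% to 50.4% for the other members. Since the gene was picked for its difference in these libraries, neither this spread nor the range over settings is separate support. The gene lies at chr1:128331590-128359664 on the minus strand (GRCm38).

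Mcm7 was the only other member whose groups did not overlap. It encodes another subunit of the ring and was at 17.8, 16.7, 13.2, 13.4 and 15.9 CPM in sham replicates 1 to 5. The pMCAO libraries had 8.94, 12.5, 8.79, 11.7 and 12.4 CPM. Every pMCAO library was thus below every sham library, although the gap from 12.5 to 13.2 CPM was smaller than the SD of either group, and it closed when counts were scaled to the total alone. A pattern of this kind, each pMCAO library below each sham library, was seen in 91 genes, 0.537% of those tested. The means were 15.4 ± 2.04 CPM in sham and 10.9 ± 1.84 CPM in pMCAO libraries, with a log2 fold change of -0.50 ± 0.21 that was not called (FDR 0.922, edgeR). Mcm7 (chr5:138164583-138172422, minus strand) shares 7.25% of its exon bases with Ap4m1 on the opposite strand and holds the microRNA genes Mir106b, Mir93 and Mir25. Ap4m1 itself was at 18.0 ± 1.65 CPM in sham and 23.9 ± 8.78 CPM in pMCAO libraries. The sources used here do not say whether counting used the strand, so reads from the shared bases cannot be told apart.

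Mcm4, also a ring subunit, was at 35.8, 65.5, 53.5, 55.2 and 51.2 CPM in the sham libraries. The pMCAO libraries were at 39.1, 36.7, 40.3, 27.2 and 42.2 CPM. Only sham replicate 1, the pooled library, lay within the pMCAO range, and without it the groups were apart. The means of 52.2 ± 10.7 and 37.1 ± 5.88 CPM gave a log2 fold change of -0.49 ± 0.19 with a 95% interval from -0.90 to -0.081, and the change was not called (FDR 0.922, edgeR). Intervals of this kind hold for 1 gene at a time and are not adjusted for the 16949 genes tested.

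Mcm2 had a fitted difference as low as that of Mcm6 but far more scatter. Its sham libraries were at 16.2, 24.1, 36.9, 13.9 and 29.6 CPM. Its pMCAO libraries were at 16.6, 16.3, 7.98, 8.70 and 23.5 CPM. All 5 pMCAO libraries were below the sham median of 24.1 CPM, but only those of replicates 3 and 4 were under the sham minimum. The log2 fold change was -0.72 ± 0.35, its 95% interval ran from -1.49 to 0.046, and it was not called (FDR 0.922, edgeR).

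Mcm3 differed less. It was at 33.9, 40.2, 47.4, 37.7 and 47.1 CPM in sham libraries and at 33.7, 34.6, 41.3, 22.9 and 31.4 CPM in pMCAO libraries. The lowest sham library was again the pooled replicate 1, and the pMCAO library with the highest value, replicate 3, exceeded 3 of the 5 sham libraries. The means were 41.3 ± 5.90 and 32.8 ± 6.66 CPM, a log2 fold change of -0.33 ± 0.18 that was not called (FDR 0.922, edgeR). Without both libraries with Xist counts it was -0.18.

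Mcm5 showed no common direction. Sham libraries were at 7.79, 10.6, 17.8, 18.5 and 19.2 CPM and pMCAO libraries at 7.92, 9.69, 29.7, 3.94 and 16.3 CPM. The pMCAO group held both the highest and the lowest of the 10 values, in replicates 3 and 4, a spread (SD 10.1 CPM) almost as large as the mean of 13.5 CPM. The log2 fold change of -0.13 ± 0.47 (FDR 0.981, edgeR) became -0.64 without pMCAO replicate 3 and 0.10 without pMCAO replicate 4. Its 95% interval, from -1.15 to 0.90, holds both the value fitted for Mcm6 and a rise of like size.

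Among the genes that load and activate the helicase, Mcm10, which helps the loaded ring unwind DNA, was the one with the lowest fitted value. Its sham libraries had 6.95, 5.66, 3.40, 8.05 and 7.64 CPM. Its pMCAO libraries had 3.81, 5.79, 6.67, 1.72 and 3.8 CPM. The ranges overlapped widely, since sham replicate 3 was lower than 4 of the 5 pMCAO libraries, and the value of 1.72 CPM rested on 21 counts, the fewest of any member in any library. The log2 fold change was -0.54 ± 0.41 (FDR 0.922, edgeR), and it was -0.34 without pMCAO replicate 4 and -0.26 without both libraries with Xist counts.

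Cdt1, the loading factor that geminin holds back, was at 15.8, 14.1, 15.2, 9.62 and 13.1 CPM in sham libraries. It was at 11.3, 19.0, 9.80, 10.3 and 11.8 CPM in pMCAO libraries. Of the pMCAO libraries 4 were below the sham median, and replicate 2 was above every sham library. The log2 fold change of -0.12 ± 0.25 (FDR 0.968, edgeR) was -0.33 without that library and -0.029 without the pooled libraries.

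Cdc6, the loading ATPase, was the only member with a fitted value above 0. It was at 4.15, 3.43, 6.45, 6.35 and 2.07 CPM in sham libraries and at 4.10, 1.5, 8.99, 6.56 and 3.99 CPM in pMCAO libraries. Both the highest and the lowest value were again in the pMCAO group, and the log2 fold change of 0.16 ± 0.50 (FDR 0.978, edgeR) had a 95% interval from -0.92 to 1.24. It ranged from -0.16 to 0.40 when single libraries were left out.

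Gins2, a subunit of the GINS complex, was at 3.70, 7.44, 8.93, 2.96 and 11 CPM in sham libraries. It was at 8.65, 11.2, 2.83, 3.69 and 6.54 CPM in pMCAO libraries. The groups covered almost the same range, and the log2 fold change was -0.051 ± 0.47 (FDR 0.996, edgeR), turning to 0.33 without both libraries with Xist counts. Of its exon bases, 67.3% are shared with exons of Gse1 on the opposite strand (chr8:120578633-120589304 for Gins2), so the counts of these genes cannot be told apart without the strand. Gse1 was at 13.1 ± 6.54 CPM in sham and 17.1 ± 7.21 CPM in pMCAO libraries.

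**Figure D2:**
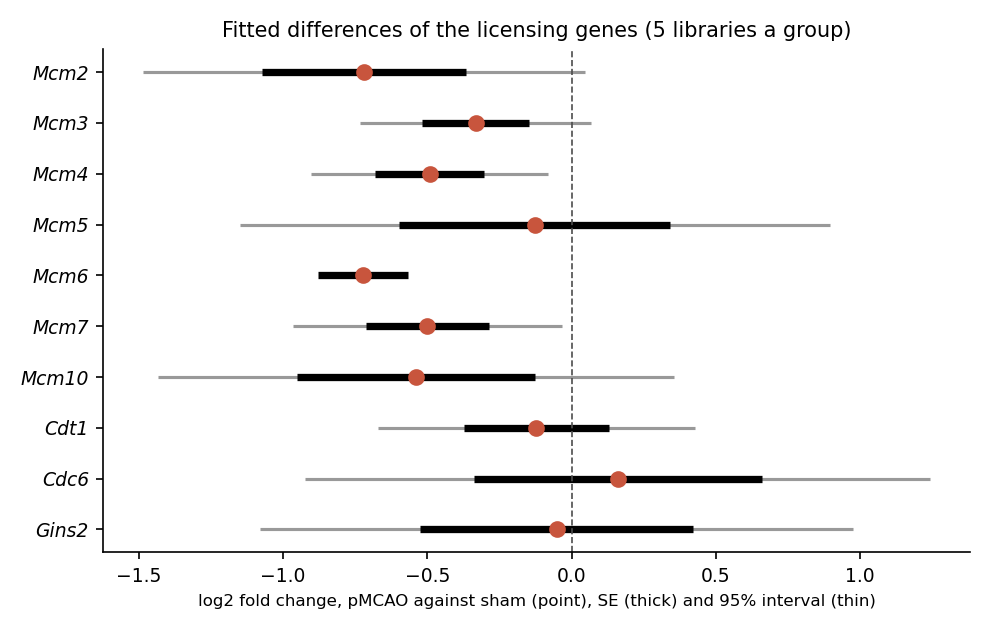
Fitted log2 fold change of each member, pMCAO against sham (5 libraries each), with the SE as a thick bar and the 95% interval for that gene alone as a thin bar, which is not drawn for Mcm6 because the gene was chosen by this difference. Of the 9 intervals drawn, those of Mcm4 and Mcm7 lie below 0 and the other 7 include it.

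Averaged over the 10 members, the level on the log2 CPM scale was 4.03 ± 0.17 in sham and 3.63 ± 0.26 in pMCAO libraries (SD over 5 libraries), a difference of -0.39. Leaving Mcm6 out, the mean over the other 9 members was 3.82 ± 0.18 in sham libraries, from 3.58 to 4.00, and 3.46 ± 0.28 in pMCAO libraries, from 2.98 to 3.65, so that the ranges overlapped. The lowest library was pMCAO replicate 4, where the 10 members averaged 3.19 on the log2 scale, and the highest was sham replicate 3, at 4.2. Without pMCAO replicate 4 the difference over the 10 members was -0.29, and without both libraries with Xist counts it was -0.25. Both values include Mcm6, which was chosen by its fall. No test was made of these averages because the members had been chosen with results of these libraries known.

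Taken per kilobase of exon, so that genes can be ranked against each other, the ring subunits were not equally abundant. In sham libraries Mcm4 was at 14.5 ± 2.98, Mcm6 at 13 ± 1.26 and Mcm3 at 11 ± 1.57 CPM per kilobase. A step that exceeded the spread then separated these 3 genes from Cdt1 (4.32 ± 0.77), Mcm5 (3.70 ± 1.31), Mcm7 (3.48 ± 0.46) and Mcm2 (3.47 ± 1.36). Gins2 (1.66 ± 0.84), Cdc6 (0.86 ± 0.36) and Mcm10 (0.82 ± 0.24) were lowest, and for all neighbours in this order other than Mcm3 and Cdt1 the ranges of mean ± SD overlapped. In pMCAO libraries Mcm6 came after Mcm4 and Mcm3, with 7.91 ± 1.22 CPM per kilobase against 10.3 ± 1.64 and 8.74 ± 1.77. This change of rank is no separate result, since Mcm6 was chosen by its fall. The lower ranks depended on the gene model: with the longest coding transcript as the length, Mcm2 was at 7.15 CPM per kilobase in sham libraries, above Cdt1 at 6.19 and Mcm7 at 5.20.

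The composition of the ring transcripts also differed between libraries. Mcm6 made up 26.7% to 32.8% of all Mcm2 to Mcm7 counts in sham libraries. In pMCAO libraries it made up from 18.5% to 30.5%, lowest in replicate 3, where Mcm5 was highest, and highest in replicate 4, where the whole set was lowest. The 10 members together received from 1185 to 20107 counts per library. The 6 ring subunits took 84.4% to 88.1% of the members' summed CPM in sham and 80.1% to 86.5% in pMCAO libraries. Since Mcm6 was chosen by its fall, lower shares of Mcm6 or of the ring after pMCAO are no separate result.

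Libraries also differed within a group. After each member was centred on its group mean in log2 CPM, which removes the difference between sham and pMCAO, pairs of ring subunits had a median Pearson correlation of 0.373 over the 10 libraries, and 11 of the 15 pairs were positive. Mcm2 and Mcm6 (r = 0.827) and Mcm3 and Mcm5 (r = 0.820) were the closest ring pairs. Pairs of a ring subunit with a loading or activation gene were positive in 13 of 24 cases, with a median of 0.149. Gins2 went with Mcm2 (r = 0.864) and Mcm6 (r = 0.836), whereas Cdc6 went against Gins2 (r = -0.757), Mcm6 (r = -0.711) and Cdt1 (r = -0.709). Against the mean of the other ring subunits, Mcm3 (r = 0.737) and Mcm4 (r = 0.705) were closest, and Mcm7 (r = -0.289) and Cdc6 (r = -0.299) were the only members with a negative value. These correlations are descriptions over 10 libraries that share 1 scaling, and the lower members carry large counting error. No range with single libraries left out is given for the pairs. Mcm3 and Mcm5 both had their highest pMCAO value in replicate 3 and their lowest in replicate 4, so their correlation leans on these libraries.

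**Figure D3:**
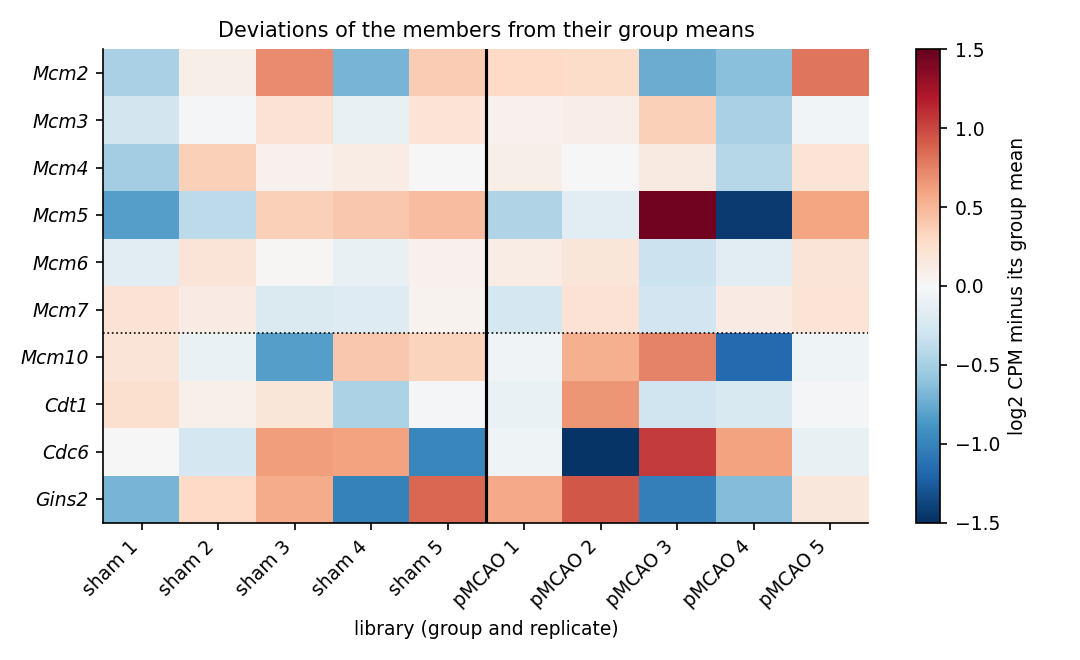
Deviation of each member (rows) from its group mean in log2 CPM in each library (columns), red above and blue below, with a solid line between the groups and a dotted line between ring subunits and loading or activation genes. Mcm5 and Mcm10 are low in pMCAO replicate 4 and high in pMCAO replicate 3, and Mcm6 and Mcm7 deviate least.

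The 160 bases before the annotated start are shown for both of these closest ring pairs, in sense orientation, from the RefSeq promoter table (GRCm38.p6). Capitals mark 3 letter patterns, searched on both strands in the 250 bases before the start: the E2F core TTTNNCGC with C or G at each N, the CCAAT box, and TTTGAA, the letters of the cell cycle homology region.
Mcm2, chr6:88898781-88898940, minus strand: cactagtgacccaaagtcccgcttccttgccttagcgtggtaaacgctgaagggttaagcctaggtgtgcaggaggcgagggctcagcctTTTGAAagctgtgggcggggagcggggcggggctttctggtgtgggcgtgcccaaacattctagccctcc
Mcm6, chr1:128359706-128359865, minus strand: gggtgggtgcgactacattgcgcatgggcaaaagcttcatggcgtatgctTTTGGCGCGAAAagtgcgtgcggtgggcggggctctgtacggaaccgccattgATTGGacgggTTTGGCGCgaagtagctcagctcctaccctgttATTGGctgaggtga
Mcm3, chr1:20820313-20820472, minus strand: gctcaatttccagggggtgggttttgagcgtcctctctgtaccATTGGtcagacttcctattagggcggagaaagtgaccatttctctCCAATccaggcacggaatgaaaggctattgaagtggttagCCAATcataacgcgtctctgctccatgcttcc
Mcm5, chr8:75109349-75109508, plus strand: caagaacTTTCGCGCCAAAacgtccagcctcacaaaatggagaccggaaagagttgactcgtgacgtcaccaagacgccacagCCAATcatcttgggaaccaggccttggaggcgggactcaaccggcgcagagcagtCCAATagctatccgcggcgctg
In Mcm6 and Mcm5 the E2F letters occurred on both strands in overlapping matches, beginning 110 and 106 bases before the start in Mcm6 and 153 and 149 bases before it in Mcm5, and Mcm6 had another match beginning 47 bases before the start. Mcm3 had CCAAT letters 3 times and no E2F letters, and Mcm2 had TTTGAA beginning 70 bases before the start and CCAAT further upstream, outside the window shown.

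The promoter table held 8 of the 10 members, all but Mcm4 and Gins2. The E2F letters were in the searched bases of 4 of these 8 genes (Mcm5, Mcm6, Mcm7 and Cdc6), against 2.16% of 27025 genes. CCAAT was in 6 of the 8 (Mcm2, Mcm3, Mcm5, Mcm6, Mcm7 and Mcm10), against 37.5% of genes, and TTTGAA was in 1, against 18.3%. The closest pairs did not share a pattern beyond this: Mcm2 has no E2F letters and Mcm6 has, and the same is true of Mcm3 and Mcm5. A match of letters is not evidence of binding.

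The licensing members were next set beside other genes of DNA replication and division. In the other licensing and origin firing genes (21 tested), which include the origin recognition complex, geminin and Cdc45, 10 were below 0 and 11 above, the median log2 fold change was 0.034, and 0 were called. The mean difference of their log2 CPM had the other sign, at -0.16, and the median itself was -0.18 without the pooled libraries. The lowest were Recql4, a helicase of origin firing, at -1.56 ± 1.01, on levels of 1.34 CPM in sham and 0.437 CPM in pMCAO libraries, and Gins1, a partner of Gins2 in the GINS complex, at -0.79 ± 0.42. The highest were Mcm9 at 0.44 ± 0.23 and Orc1 at 0.43 ± 0.60, the former a relative of the ring subunits that is not part of the ring.

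The replisome list (26 genes tested) had 21 genes below 0, 5 above and 0 called, with a median of -0.23 (-0.15 without pMCAO replicate 1, -0.13 without both libraries with Xist counts). Clspn, which encodes the checkpoint mediator claspin, was at 9.28 ± 1.99 CPM in sham and 3.66 ± 1.32 CPM in pMCAO libraries. Its groups did not overlap, the log2 fold change was -1.33 ± 0.35, and it was not called (FDR 0.922, edgeR). Chaf1a, a histone chaperone subunit, followed at -1.03 ± 0.54. Pcna, the sliding clamp of the replication fork, was at 116 ± 15.4 CPM in sham and 118 ± 16.8 CPM in pMCAO libraries, a log2 fold change of 0.029 ± 0.15 with overlapping groups. Pole2 (0.39 ± 0.23) and Pold3 (0.30 ± 0.19), both polymerase subunits, were highest.

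Genes of nucleotide supply and the G1/S transition (24 tested) had 15 values below 0, 9 above, 0 called and a median of -0.16. That median was -0.098 without pMCAO replicate 4 and -0.041 without both libraries with Xist counts. Uhrf1, which maintains DNA methylation behind the fork, was lowest at -1.02 ± 0.45. E2f3 (0.37 ± 0.48) and Rrm2, a ribonucleotide reductase subunit (0.27 ± 0.42), were highest.

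Of the mitosis genes (24 tested), 20 were below 0, 4 above and 0 called, with a median of -0.20. It depended on single pMCAO libraries, at -0.37 without replicate 3 and -0.082 without replicate 4, and was -0.049 without both libraries with Xist counts. Birc5, which encodes survivin, was at -0.90 ± 0.38. Kif11, the motor that separates spindle poles, was at 33.7 ± 5.30 CPM in sham and 18.0 ± 5.64 CPM in pMCAO libraries, without overlap (-0.90 ± 0.25, FDR 0.922, edgeR). Cdk1, the kinase of mitotic entry, was at -0.71 ± 0.38, Top2a at -0.44 ± 0.23 and the proliferation marker Mki67 at -0.21 ± 0.21, all with overlapping groups. Cenpa (0.32 ± 0.23) and Kif20a (0.14 ± 0.52) were highest.

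The clustered histone genes, taken by name, had the lowest median of these lists at -0.62, with 44 of 50 below 0 and 0 called. Messages of many, but not all, of these genes accumulate during DNA synthesis. The median was -1.06 without pMCAO replicate 3 and -0.43 without both pooled libraries. Hist1h4j (-2.74 ± 0.93) and Hist1h3i (-1.67 ± 0.85) were lowest, both at 3.21 CPM or less in the sham mean. Hist2h2be (0.42 ± 0.27) and Hist4h4 (0.30 ± 0.51) were highest. Among cell cycle inhibitors (9 tested), 3 were below 0 and 6 above, 0 were called, and the median was 0.071, whereas the mean difference of their log2 CPM was -0.17 and the median was -0.036 without pMCAO replicate 4. Cdkn2d (-0.70 ± 0.43) and Cdkn1a (-0.34 ± 0.37) were lowest, and Trp53 (0.30 ± 0.28) and Cdkn1b (0.13 ± 0.19) highest.

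**Figure D4:**
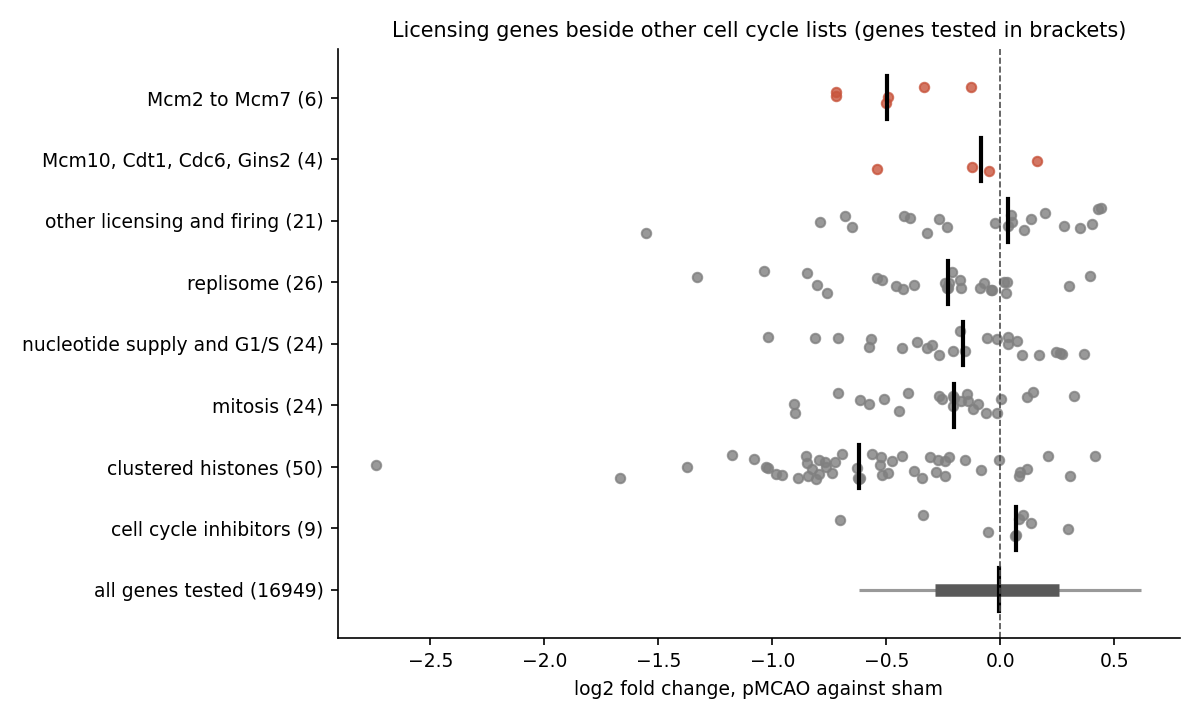
Log2 fold change of each gene (points), pMCAO against sham, in the licensing members (red) and in other cell cycle lists (grey), with the median of each list as a bar and the number tested in brackets. The lowest row gives all 16949 genes by their median, the 25th to 75th percentile (thick bar, -0.285 to 0.257) and the 10th to 90th percentile (thin bar, -0.62 to 0.62), and no gene shown was called.

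Genes of other cells were compared in the same way. Of the 8 monocyte markers 6 were below 0 (median -0.28, 0 called), with a mean difference of log2 CPM of -0.66 and sums of 721 to 2609 CPM in sham and 699 to 1813 CPM in pMCAO libraries. Vcan, a matrix proteoglycan of monocytes, was lowest at -1.47 ± 0.66, followed by Plac8 at -1.08 ± 0.41, while Ccr2, the chemokine receptor of classical monocytes, was at 0.14 ± 0.32, these 3 being named after their values were seen. All 14 T cell and innate lymphoid markers tested were below 0 (median -0.86, 0 called), and their summed level was 257 to 1199 CPM in sham and 242 to 626 CPM in pMCAO libraries. Epithelial and crypt markers had 15 of 21 genes below 0 (median -0.39, 0 called), with sums of 823 to 1860 CPM and 286 to 2133 CPM, and Epcam, their surface marker, was at 106 ± 17.0 CPM in sham and 64.5 ± 40.7 CPM in pMCAO libraries. Among neutrophil and mast cell genes, 4 of the 11 listed could be tested, all 4 were below 0 (median -1.49, 0 called), and the sums were 2117 to 19934 CPM and 424 to 6466 CPM. The mast cell genes Mcpt1, Mcpt2 and Cpa3 were at -1.86, -1.82 and -1.17. Retnlg, the only neutrophil gene tested, was at -0.0094 ± 1.23, on 3.60 CPM in sham and 3.65 CPM in pMCAO libraries. The B and plasma cell sums were 1170 to 25926 CPM and 1434 to 28660 CPM, with 6 of 13 genes below 0, a median of 0.036 and a mean difference of log2 CPM of -0.50. The dendritic cell list had 5 of 11 genes below 0 (median 0.065) and the stromal and endothelial list 4 of 12 (median 0.054). Of the 15 macrophage markers 10 were above 0 (median 0.15), with sums of 8790 to 19351 CPM and 9805 to 18834 CPM. None of Epcam, Jchain and Cd3e was at 0 in any library, and the lowest value of Cd3e, a T cell receptor component, was 0.818 CPM. The part of these cells in the lower levels of the licensing genes was not tested.

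Within groups, the mean of the 6 ring subunits followed the nucleotide supply and G1/S list most closely of the lists compared (r = 0.906 over 10 libraries, 0.880 to 0.962 with single libraries left out). Its correlation with the 4 loading and activation members was 0.770 (0.390 to 0.887) and that with the replisome list was 0.760 (0.503 to 0.934). It was weaker for the other licensing and firing genes, at 0.342 (0.239 to 0.533), and for the clustered histones, at 0.284 (-0.095 to 0.479). The correlation with the mitosis list, 0.642, rested on pMCAO replicate 4 and was 0.021 without it. Against the macrophage markers the ring subunits had r = -0.666 (-0.757 to -0.585), and against stromal and endothelial markers r = -0.771 (-0.917 to -0.643). The values for T cell markers (0.482), dendritic cell markers (0.450), monocyte markers (0.295), neutrophil and mast cell genes (0.229), B and plasma cell markers (0.291) and epithelial markers (0.243) were smaller, and the epithelial value was -0.602 without pMCAO replicate 4. The correlation with the log2 of total counts was 0.516. All of these share the libraries, their scaling and their depth.

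**Figure D5:**
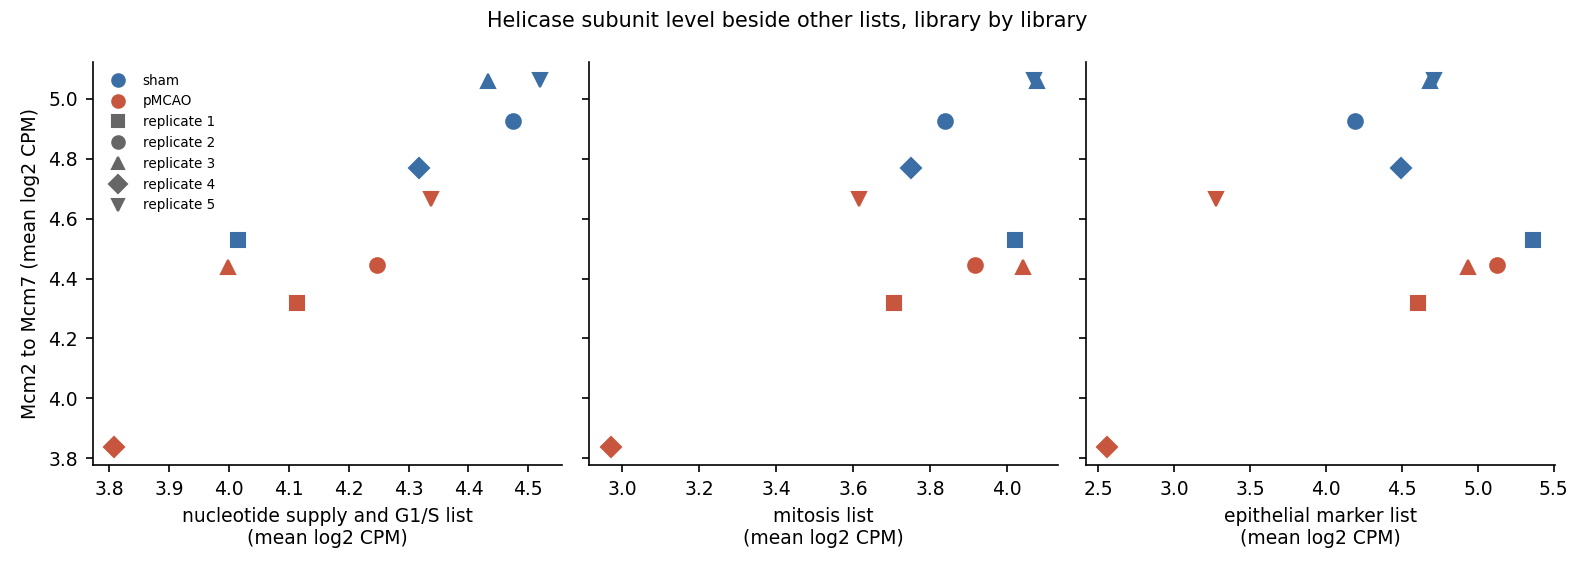
Mean log2 CPM of Mcm2 to Mcm7 (vertical axis) against that of the nucleotide supply and G1/S list, the mitosis list and the epithelial marker list (horizontal axes) in each library, with the group as the colour and the replicate as the symbol. The ring subunits rise with the G1/S list in both groups, and pMCAO replicate 4 (diamond, red) is lowest on all axes.

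The 10 genes whose group-centred pattern was most like the mean of the ring subunits, among 12946 genes with a mean log2 CPM of at least 1, had correlations from 0.899 to 0.942 over the 10 libraries. They were Rassf6 (0.942), Slc2a6 (0.938), Mybbp1a (0.933), Wdr1 (0.929), Polr1a (0.925), Gm15753 (0.917), Slc35a4 (0.910), Adsl (0.905), Smc2 (0.899) and Csf2rb (0.899). As the highest of 12946 genes over only 10 libraries, these values are raised by the choice itself. Without both libraries with Xist counts the 10 values ran from 0.813 (Gm15753) to 0.940 (Csf2rb). Smc2 encodes a condensin subunit and Polr1a the largest subunit of RNA polymerase I, while Slc2a6 encodes a sugar transporter and Adsl an enzyme of purine synthesis. Among the 50 closest genes 3 were in the cell cycle lists above (6%), which made up 0.726% of the genes ranked, and the median correlation was 0.299 over the cell cycle genes and 0.0229 over all genes ranked.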

How the data were processed

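Libraries were made from 2.0 ng of total RNA after depletion of ribosomal RNA and sequenced in pairs of 100 bases. The deposited table holds raw counts of reads for each gene, as whole numbers, and CPM values that the authors made by dividing by each library's total. These CPM values of the authors were checked against the counts and not used further. The table also holds the authors' own fold changes, p-values and FDR for the same comparison, which were not used. The submitters' processing notes name STAR, featureCounts, limma and GRCm38 (mm10), and versions, settings and strandedness are not given in the sources used here. All 17279 genes listed have at least 10 counts in 2 or more libraries.

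Groups and replicate numbers came from the labels. Counts were filtered with filterByExpr, scaled by TMM and fitted with edgeR 4.0.16 (glmQLFit and glmQLFTest, R 4.3.3) over all 10 libraries without covariates, with Benjamini-Hochberg adjustment over 16949 genes and an FDR of 0.05 as the threshold. Log2 CPM used a prior count of 2. Gene lengths and overlaps came from the GENCODE annotation of GRCm38, matched for 17193 genes. The scripts were tested on simulated data. Alternatives were DESeq2 1.42.0, limma-voom (limma 3.58.1), other scalings and filters, the replicate number as a block, and subsets of libraries. Named genes were the 10 members, the 2 lowest and 2 highest fold changes of each cell cycle list, standard markers and the 10 genes closest to the ring subunits. Some genes that this rule or a call would name are not reported here. The members and lists were chosen with earlier results of these data known.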

Additional observations from a re-analysis of the deposited data

Results flagged for a closer look

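In groups of 5 libraries, the highest or lowest library was checked for its gap to the next one, divided by the whole range of the 5, against Dixon's 95% critical value of 0.71. Over 24 such checks of members and member averages, 2 passed it, where chance gives about 1.2. The log2 CPM of Cdt1 in pMCAO replicate 2, at 19.0 CPM the highest of the group, had a ratio of 0.724. The mean log2 CPM of the 10 members in pMCAO replicate 4, the lowest of its group at 3.19, had a ratio of 0.733. The latter is 1 of the 2 libraries with Xist counts and had the lowest Y-linked sum, 1.23 CPM. Its total of 11605371 counts was not the lowest.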

How the results depend on the processing

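No alternative called any of the 9 members that could be tested. With DESeq2, 3 genes of the whole table were called, among them Rbp7 and Tppp3, which were named after their values were seen. The mean difference over the members stayed below 0 in every alternative, and was -0.451 to -0.289 with single libraries left out. The members whose groups do not overlap numbered 1 with scaling to total counts only, which was Mcm6, against 0.596% of all genes lower in this way. With single libraries left out they numbered 2 to 3, against 0.861% to 1.77% of all genes. These were Mcm6 and Mcm7 each time, joined by Mcm4 without sham replicate 1. Mcm6 was chosen by this difference, so only Mcm7 and Mcm4 can be set beside these shares. Replicate numbers were not treated as pairs in the main fit. The correlation of same-numbered libraries ran from -0.0055 to 0.372, and 2 of the 5 were not above 0.1. Libraries of different numbers were not compared, so these values cannot show whether the numbers mark pairs. With the replicate number as a block, 0 genes were called and 1303 had an unadjusted p under 0.05, against 799 without it, and Cd3e turned to 0.41. The smallest FDR was 0.173 with the block and 0.922 without it (edgeR).

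Without both libraries with Xist counts, correlations with the ring subunits were -0.107 for mitosis, 0.306 for the replisome, 0.855 for G1/S, -0.664 for epithelial, 0.340 for T cell and -0.486 for macrophage genes. With total counts only, they were 0.719 for other licensing and 0.765 for T cell genes. Fold changes that turned without both libraries with Xist counts were Mcm5 (0.22), Cdc6 (-0.14), Gins2 (0.33), Hist4h4 (-0.011), Pcna (-0.056), Cx3cr1 (-0.042) and Cd3e (0.73). With limma-voom, Orc1 (-0.010), E2f3 (-0.13), Kif20a (-0.12), Jchain (-0.13) and Cd3e (0.094) turned, and without the pooled libraries Jchain did (-0.031). With single libraries left out, the ranges that crossed 0 were -0.64 to 0.10 for Mcm5, -0.16 to 0.40 for Cdc6, -0.34 to 0.18 for Gins2, -0.11 to 0.51 for Rrm2, -0.42 to 0.54 for E2f3, -0.18 to 0.33 for Kif20a, -0.086 to 0.41 for Trp53, -0.022 to 0.11 for Pcna, -1.01 to 0.98 for Jchain and -0.43 to 0.65 for Cd3e. The causes were not tested. Over all results and alternatives, 961 values were the same in direction and call or within the spread, 22 moved and 36 turned. Depth limits the least abundant members most, with 21 counts of Mcm10 in pMCAO replicate 4.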
